A study of Arabidopsis thaliana with 12 samples.

Results

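The comparison set gun1-1 seedlings against gun5-1 seedlings of Arabidopsis thaliana, both germinated on 5 µM norflurazon, a herbicide that blocks carotenoid synthesis and bleaches the plastids. Each mutant was measured relative to wild-type Col-0 grown on the same herbicide. The gun1-1 group held 3 libraries, the gun5-1 group 3 and the Col-0 group 3, of 12 libraries in all. The members were the 6 mutant libraries, and the gun4-1 libraries were not used. All seedlings were 5 d old, in the Col-0 background, under continuous light of 100 µE, so that norflurazon was common to every group and untreated seedlings were not analysed here. The sample labels name whole seedlings as the tissue, while the design text of the series speaks of leaf RNA. The treatment text also names piperonylic acid for gun5-1, but each library used here is labelled with norflurazon alone. Each mutant was 1 allele, and the tables count transcripts without showing the base change that each allele carries.

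GUN1 is a pentatricopeptide repeat protein of the plastid, and GUN5 is the CHLH subunit of magnesium chelatase, which inserts magnesium into protoporphyrin on the way to chlorophyll. When plastids are damaged by norflurazon, wild-type seedlings turn down nuclear photosynthesis genes through retrograde signalling from plastid to nucleus. The gun mutants (genomes uncoupled) keep these genes on in spite of the damage. Both mutants share that phenotype, and the question here was which transcripts told them apart.

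The deposited tables give 1 abundance per transcript and genotype, in FPKM (fragments scaled for transcript length and for library size), estimated over the 3 libraries of the group. No value of a single library was given, so no spread between libraries could be shown and the depth is unknown. Each table held 64480 transcripts of 38093 genes, and each gene was represented by its most abundant transcript. A gene was tested where both deposited comparisons with Col-0 had been carried out and no group was listed at 0, which left 18307 genes. The difference is the log2 ratio of gun1-1 to Col-0 minus the log2 ratio of gun5-1 to Col-0, so that 1 stands for a doubling in gun1-1 over gun5-1. Its error (SE) was built from the deposited test statistics, and a two-sided normal test of the difference was adjusted over all genes tested by the method of Benjamini and Hochberg. Col-0 is the same group in both ratios, and its FPKM in the gun5-1 table was 0.984 times that in the gun1-1 table at the median. Col-0 values below are those of the gun1-1 table, and abundances are the authors' group values. The test is a normal approximation over groups of 3 libraries, so calls and errors are given for single genes in place of p-values. A gene whose difference is given was called unless the sentence says that it did not pass.

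Of the 18307 genes, 313 differed between gun1-1 and gun5-1 at an adjusted p under 0.05, which is 1.71%. Higher in gun1-1 were 157 genes (0.858%) and lower were 156 (0.852%), of which 39 belong to the plastid genome. The median difference over all genes was 0.01, the median SE 0.44, and the smallest difference that was called 0.78. At an unadjusted p under 0.05 there were 1311 genes. Col-0 noise enters both errors although the group is shared, which on its own makes the error of the difference too large. With the summed variance multiplied by 0.5, 1112 genes passed (6.07%), 564 higher (3.08%) and 548 lower (2.99%). The counts of the lists below are to be read beside these shares. The effect of the normal approximation on the calls was not tested. The authors' deposited tables list 3528 of 18791 genes as higher in gun1-1 than in Col-0 (18.8%) and 2806 as lower (14.9%), and 3038 of 18545 as higher in gun5-1 than in Col-0 (16.4%) and 2431 lower (13.1%). In bulk seedlings a change in the share of a cell type and a change of RNA per cell cannot be told apart. Of the called genes, 66 lie in a span that also holds another annotated gene, and reads of such neighbours may be mixed. HSP101, HOP3, FES1A, AT2G20560, AT5G12110, RPT5B, CPN60B2, FER1, FER2, CYP81D11 and XTH9 are among them. In the main lists described below, they make up 5 of 9 called heat shock genes, 8 of 21 called proteasome genes and 8 of 39 called plastid genome genes.

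**Figure D1:**
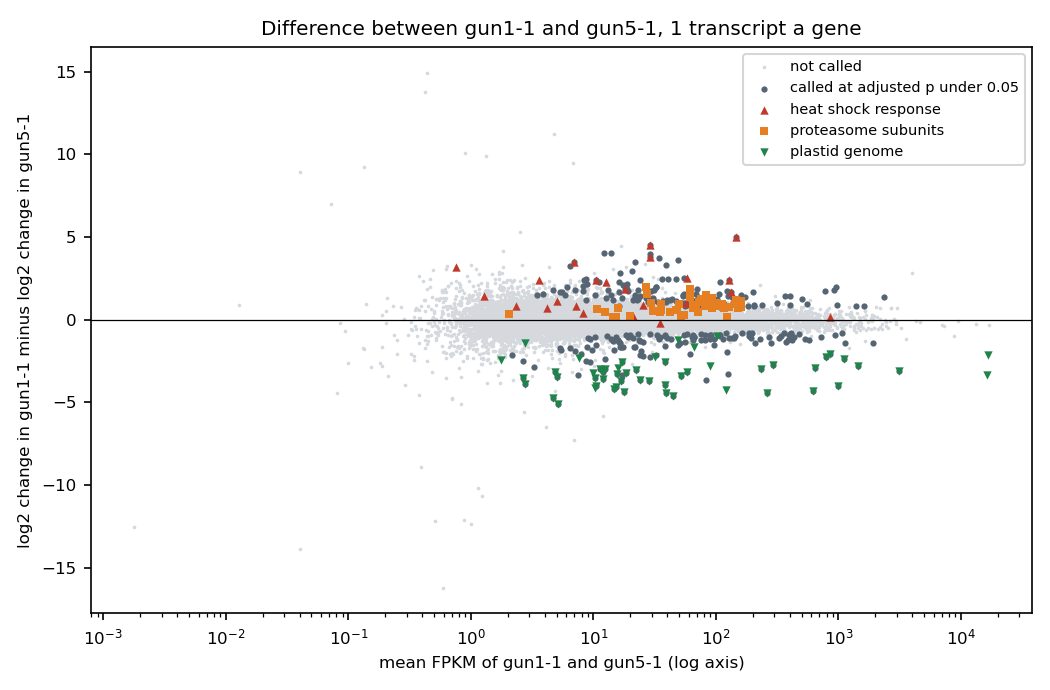
Difference between gun1-1 and gun5-1 (log2) of each of the 18307 genes tested, against its mean abundance in FPKM on a log axis, with called genes and the main gene groups in colour. Among called genes, heat shock genes lie at the top, with HSP70 at 5.01, and plastid genome genes at the bottom, with psaB at -5.08.

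Among called genes, the largest differences in favour of gun1-1 included those of the heat shock response, whose chaperones hold and refold unfolded proteins. The list had 30 members and also holds heat shock factors and other stress genes, such as GOLS1 and APX2. Of the 30 members, 23 could be tested. Of these 9 were higher in gun1-1 than in gun5-1 and none was lower, with a median difference of 1.66. Of all genes tested 0.858% were higher and 0.852% lower. With 1 FPKM added and the untested members included, the median over all 30 was 1.04. In the authors' deposited tables, 19 of the members were higher in gun1-1 than in Col-0, while in gun5-1 1 was higher than in Col-0 and 9 were lower. Summed over the list, abundance was 2124 FPKM in gun1-1, against 1073 FPKM in gun5-1 and 1193 FPKM in Col-0.

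HSP70 (AT3G12580), a stress-inducible cytosolic chaperone, had the largest called difference of any nuclear gene, with 282 FPKM in gun1-1, against 8.58 FPKM in gun5-1 and 42.3 FPKM in Col-0. Col-0 thus lay between both mutants. The difference was 5.01 (SE 0.27), which is a ratio of 32.3. HSP17.6A, a small heat shock protein of the cytosol, had 55.2 FPKM in gun1-1, against 2.32 FPKM in gun5-1 and 8.22 FPKM in Col-0, a difference of 4.55 (SE 0.66). HSP90.1, the inducible cytosolic HSP90, had 53.6 FPKM in gun1-1, against 3.86 FPKM in gun5-1 and 17.7 FPKM in Col-0, a difference of 3.77 (SE 0.33). All 3 were above Col-0 in gun1-1 and below it in gun5-1, and the authors' deposited tables call each of them in both directions. Hsp70-2 (AT5G02490), an HSP70 gene outside the list, had 54.9 FPKM in gun1-1, against 3.39 FPKM in gun5-1 and 5.73 FPKM in Col-0, a difference of 3.99 (SE 0.37). FES1A, which protects HSP70 in the cytosol, had 28.4 FPKM in gun1-1, against 7.62 FPKM in gun5-1 and 13.04 FPKM in Col-0, a difference of 1.87 (SE 0.35). The other members called were HSP70-3, HSP90.2 and ROF1, with differences of 2.37, 1.66 and 1.02. HSP101, the chaperone that pulls proteins out of aggregates, had 17.58 FPKM in gun1-1, against 3.30 FPKM in gun5-1 and 4.22 FPKM in Col-0, a difference of 2.39 (SE 0.40). The cochaperone HOP3, which links HSP70 and HSP90, had 12.7 FPKM in gun1-1, against 1.12 FPKM in gun5-1 and 1.69 FPKM in Col-0, with the widest error of the 9 members called, 3.48 (SE 1.01). It lost its call when 1 FPKM was added to every value, and when transcripts were summed.

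**Figure D2:**
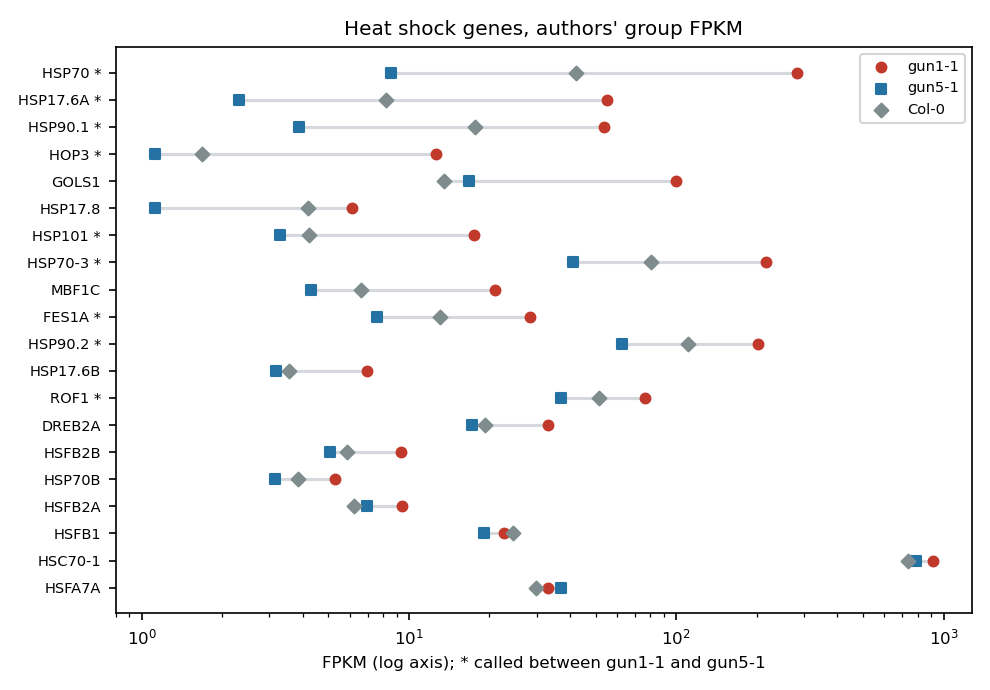
Abundance (FPKM, log axis) of heat shock genes in gun1-1, gun5-1 and Col-0, 1 pooled value per genotype. For HSP70 the gun1-1 point stands at 282 FPKM, the gun5-1 point at 8.58 FPKM and the Col-0 point at 42.3 FPKM.

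The 14 members tested that did not pass included abundant ones. HSC70-1, the abundant housekeeping HSP70 of the cytosol, had 913 FPKM in gun1-1, against 788 FPKM in gun5-1 and 739 FPKM in Col-0, a difference of 0.19 (SE 0.27). HSFB1, a class B heat shock factor, had 22.7 FPKM in gun1-1, against 19.0 FPKM in gun5-1 and 24.4 FPKM in Col-0, a difference of 0.23 (SE 0.28). The cytosolic HSP70 and HSP90 genes are alike in sequence, so reads can be split between them by the estimation. Summed over HSC70-1 and Hsp70-2, the FPKM differed by 0.27 on the log2 scale. Summed over HSP90.2, HSP90.3 and HSP90.4, abundance was 403 FPKM in gun1-1, against 128 FPKM in gun5-1 and 223 FPKM in Col-0, a log2 difference of 1.63 with no test. HSFA2, an inducible heat shock factor, could not be tested. DNAJ proteins are the cochaperones that feed clients to HSP70. Of 103 tested genes annotated as such, 2 were higher in gun1-1 and none lower, with a median of 0.08. Over all genes tested, 0.858% were higher and 0.852% lower. The 2 called were AT2G20560 and J3. AT2G20560 had 26.3 FPKM in gun1-1, against 1.56 FPKM in gun5-1 and 4.68 FPKM in Col-0. J3 had 312 FPKM in gun1-1, against 164 FPKM in gun5-1 and 173 FPKM in Col-0.

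Subunits of the 26S proteasome, the protease that degrades ubiquitin-tagged proteins, were higher in gun1-1 than in gun5-1 at 21 of 52 genes tested and lower at none. Its barrel-shaped core particle carries the proteolytic sites between outer rings of alpha (PA) and inner rings of beta (PB) subunits, and its regulatory particle of RPT ATPases and RPN proteins unfolds the substrates. The subunits have 53 genes, and with the variance multiplied by 0.5, 37 were higher. The difference was above 0 for all 52, between 0.13 and 1.95. The median was 0.81 against 0.01 over all genes tested. In the authors' deposited tables, 26 subunits were higher in gun1-1 than in Col-0 and none lower, while in gun5-1 41 were lower and none higher. Over the 52 genes tested, the median of the deposited log2 ratios to Col-0 was 0.25 in gun1-1 and -0.53 in gun5-1. Summed over the 53 genes, abundance was 5039.6 FPKM in gun1-1, against 2710.2 FPKM in gun5-1 and 4149.6 FPKM in Col-0. The genes were collected after their values had been seen, so no test of the list was made.

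In the core particle 12 of 23 genes were higher in gun1-1, with a median of 0.93. PBB2, a beta-type subunit of the inner rings, had 122 FPKM in gun1-1, against 43.2 FPKM in gun5-1 and 70.8 FPKM in Col-0, a difference of 1.47 (SE 0.26). PBD2, of another beta position, had 88.8 FPKM in gun1-1, against 33.2 FPKM in gun5-1 and 74.3 FPKM in Col-0, a difference of 1.397 (SE 0.29). PAA2 and PAE1 are alpha subunits of the outer rings. PAA2 had 132 FPKM in gun1-1, against 52.7 FPKM in gun5-1 and 104 FPKM in Col-0, a difference of 1.305 (SE 0.24). PAE1 had 106 FPKM in gun1-1, against 44.0 FPKM in gun5-1 and 82.9 FPKM in Col-0, a difference of 1.25 (SE 0.26). PAC1 and PAF1, alpha subunits that did not pass, differed by 0.71 (SE 0.24) and 0.78 (SE 0.24).

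In the regulatory particle 9 of 29 genes tested were higher in gun1-1, with a median of 0.70. RPT5B, an ATPase of the base, had 43.1 FPKM in gun1-1, against 11.0 FPKM in gun5-1 and 24.0 FPKM in Col-0, a difference of 1.95 (SE 0.32). RPT6B, a further ATPase, had 96.7 FPKM in gun1-1, against 26.6 FPKM in gun5-1 and 60.9 FPKM in Col-0, a difference of 1.84 (SE 0.25). RPN11 is the deubiquitinase that removes the ubiquitin chain before degradation. It had 204 FPKM in gun1-1, against 86.0 FPKM in gun5-1 and 138 FPKM in Col-0, a difference of 1.22 (SE 0.24). RPN8B, the partner type of RPN11 in the lid, had 41.5 FPKM in gun1-1, against 13.6 FPKM in gun5-1 and 22.9 FPKM in Col-0, a difference of 1.58 (SE 0.31). RPT5A, the sister gene of RPT5B, had 130.0 FPKM in gun1-1, against 116 FPKM in gun5-1 and 133 FPKM in Col-0, a difference of 0.14 (SE 0.24) that did not pass.

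Most subunits come as pairs of similar genes, between which reads may be divided. As sums of pairs with no test, RPT6A and RPT6B had 153 FPKM in gun1-1, against 73.6 FPKM in gun5-1 and 118 FPKM in Col-0, a log2 difference of 1.03, and PBB1 and PBB2 differed by 0.96. For PAE1 and PAE2 the summed difference was 1.19, and for PAA1 and PAA2 it was 1.03. The pair RPT5A and RPT5B differed by 0.42 when summed, with 173 FPKM in gun1-1, against 127 FPKM in gun5-1 and 157 FPKM in Col-0. A further gene of the pathway, AT1G67250, the chaperone of core assembly UMP1, had 139 FPKM in gun1-1 and 68.4 FPKM in gun5-1, a difference of 1.00 (SE 0.26). AT3G10500 (NAC53) and AT5G04410 (NAC78), transcription factors known to act on proteasome genes in Arabidopsis, differed by 0.30 (SE 0.52) and 0.25 (SE 0.31) and did not pass.

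**Figure D3:**
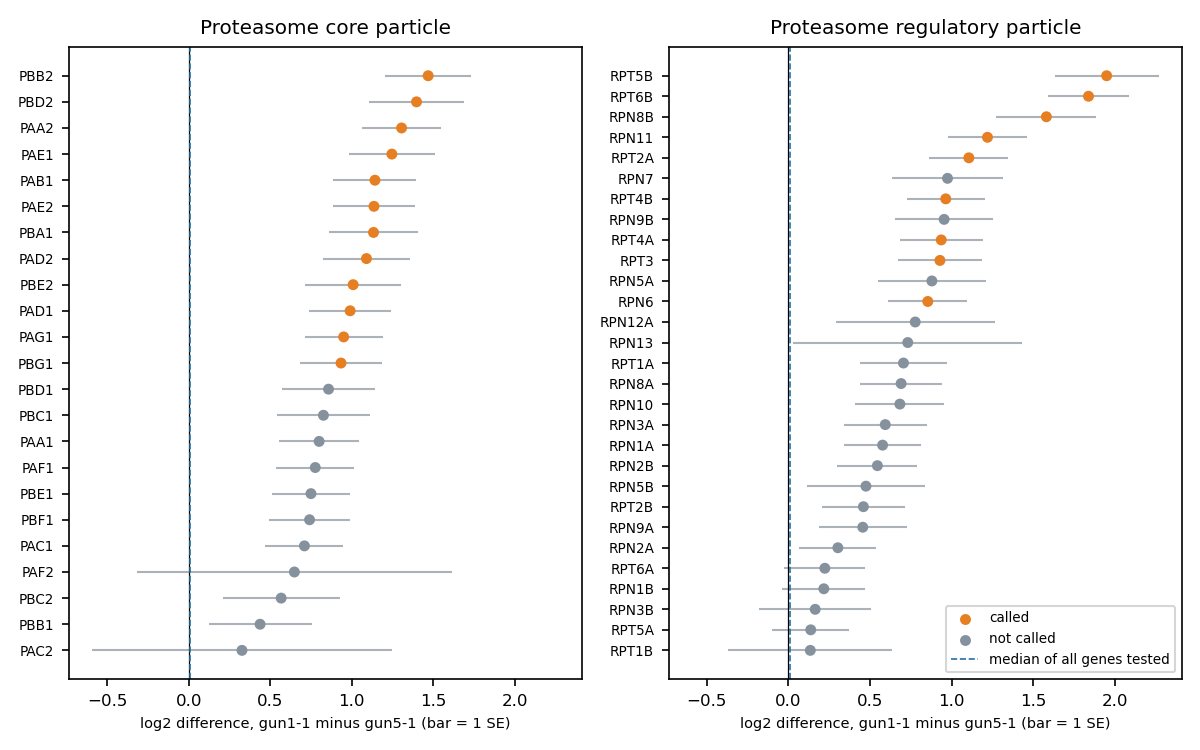
Log2 difference, gun1-1 minus gun5-1, of each tested proteasome subunit gene, core particle on the left and regulatory particle on the right, with bars of 1 SE and called genes in orange. All 52 points lie right of 0, from 0.13 to 1.95, and the dashed line is the median of all genes tested, 0.01.

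Upstream sequences of proteasome subunits are shown because the genes of the complex lay on 1 side of 0. Windows were the 250 bases before the gene start in RefSeq (build TAIR10.1). The letters TGGGC, searched on both strands (GCCCA on the other), were present in 27 of the 53 subunit windows (50.9%), against 22.7% of all 27443 nuclear protein-coding windows and 26.7% of the windows of tested genes. Among the 21 subunits called higher they were in 11 (52.4%), and in the heat shock list they were in 15 of 30 windows (50%). A match describes the letters only. Capitals mark them in the following windows, all 5′ to 3′ on the strand of the gene: PBB2 from chr5:16250926-16251175 on the minus strand with 3 matches, PAE1 from chr1:20106078-20106327 on the minus strand with 1, RPN8B from chr3:3528551-3528800 on the plus strand with 2, and RPT6B from chr5:6756383-6756632 on the plus strand with none.
PBB2: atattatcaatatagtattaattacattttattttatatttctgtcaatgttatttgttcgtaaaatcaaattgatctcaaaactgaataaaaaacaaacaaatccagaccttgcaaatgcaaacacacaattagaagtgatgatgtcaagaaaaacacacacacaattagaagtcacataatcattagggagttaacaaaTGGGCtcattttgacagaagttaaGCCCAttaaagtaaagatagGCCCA
PAE1: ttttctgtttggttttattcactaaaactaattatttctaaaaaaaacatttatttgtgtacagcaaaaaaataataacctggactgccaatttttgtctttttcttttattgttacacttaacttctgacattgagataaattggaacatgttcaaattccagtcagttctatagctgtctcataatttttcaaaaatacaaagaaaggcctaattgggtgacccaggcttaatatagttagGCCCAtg
RPN8B: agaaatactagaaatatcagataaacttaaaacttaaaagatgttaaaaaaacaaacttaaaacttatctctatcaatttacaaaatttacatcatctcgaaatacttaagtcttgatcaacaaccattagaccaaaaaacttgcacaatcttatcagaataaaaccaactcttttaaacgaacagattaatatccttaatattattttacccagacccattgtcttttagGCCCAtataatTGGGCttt
RPT6B: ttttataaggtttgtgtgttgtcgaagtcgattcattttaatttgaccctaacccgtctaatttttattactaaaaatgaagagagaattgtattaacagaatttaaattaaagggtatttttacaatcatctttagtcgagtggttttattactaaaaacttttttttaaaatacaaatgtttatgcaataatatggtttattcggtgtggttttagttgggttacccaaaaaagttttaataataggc

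The perfect heat shock element of 3 units, GAA and TTC in turn with 2 bases between them on either strand, was in 6 of the 30 windows of the heat shock list (20%), against 0.386% of all windows. None of the 9 members called higher held it within this window. Its 2-unit form, GAANNTTC or TTCNNGAA, which is part of the longer one, was in 11 of 30 windows (36.7%) and in 2 of the 9 called, against 16.1% of all windows. The HSP17.6A window, chr5:3884839-3884948 on the minus strand and shown over 110 bases because a neighbouring gene lies beyond, held 1 match, in capitals 22 bases before the gene start. UPOX, described below, is shown beside it for 1 form of the mitochondrial dysfunction motif, CTTG and CAAG with 5 bases between them, its own reverse complement. Other forms were not searched. The form searched was in 0.74% of all windows and in 2 of 24 windows of the oxidative and mitochondrial stress list. Of the 5 members called higher, 1 held it, which was UPOX, and AOX1A did not. The UPOX window is chr2:9254128-9254377 on the plus strand, and the match starts 51 bases before the gene start.
HSP17.6A: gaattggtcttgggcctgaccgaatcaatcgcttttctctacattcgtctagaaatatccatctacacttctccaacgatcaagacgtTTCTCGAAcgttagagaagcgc
UPOX: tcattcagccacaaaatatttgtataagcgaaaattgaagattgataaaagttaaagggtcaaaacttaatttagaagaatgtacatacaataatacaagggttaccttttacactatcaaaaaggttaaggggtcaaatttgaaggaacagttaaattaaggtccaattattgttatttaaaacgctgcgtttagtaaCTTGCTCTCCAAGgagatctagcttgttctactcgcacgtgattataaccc

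Ferritins, the plastid and mitochondrial shells that store iron, were higher in gun1-1 at 3 of the 4 genes. FER1, the main leaf ferritin, had 1537 FPKM in gun1-1, against 382 FPKM in gun5-1 and 999 FPKM in Col-0, a difference of 1.99 (SE 0.28). FER2, known from seeds, had 18.4 FPKM in gun1-1, against 3.73 FPKM in gun5-1 and 5.16 FPKM in Col-0, a difference of 2.28 (SE 0.63). Its call was lost when 1 FPKM was added to every value. FER3 had 237 FPKM in gun1-1, against 81.9 FPKM in gun5-1 and 133 FPKM in Col-0, a difference of 1.51 (SE 0.24). FER4, which also enters mitochondria, had 131 FPKM in gun1-1, against 59.3 FPKM in gun5-1 and 66.7 FPKM in Col-0, and its difference of 1.11 (SE 0.40) did not pass. In the authors' deposited tables all 4 were higher in gun1-1 than in Col-0, and 2 were lower in gun5-1. The group was collected after its values had been seen.

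Of 23 tested genes for oxidative and mitochondrial stress, 5 were higher in gun1-1 and 1 was lower, with a median of 0.38. The 5 include FER1 and FER3. UPOX (AT2G21640), a marker of oxidative stress in mitochondria, had 158 FPKM in gun1-1, against 52.3 FPKM in gun5-1 and 306 FPKM in Col-0, a difference of 1.57 (SE 0.26). It was below Col-0 in both mutants, and less so in gun1-1. The call was lost with the error from the p-value alone, an upper bound here because both p-values stood at the smallest listed. AOX1A, the alternative oxidase that bypasses part of the respiratory chain, had 74.03 FPKM in gun1-1, against 36.2 FPKM in gun5-1 and 71.8 FPKM in Col-0, a difference of 1.01 (SE 0.25). Its gun1-1 level was close to that of Col-0. APX1, the cytosolic ascorbate peroxidase, had 721 FPKM in gun1-1, against 297 FPKM in gun5-1 and 496 FPKM in Col-0, a difference of 1.26 (SE 0.35). Catalase CAT3, which breaks down hydrogen peroxide, went the other way, with 116 FPKM in gun1-1, against 303 FPKM in gun5-1 and 406 FPKM in Col-0, a difference of -1.41 (SE 0.25). The copper/zinc superoxide dismutases CSD1, of the cytosol, and CSD2, of the plastid, differed by 0.06 (SE 0.25) and -0.04 (SE 0.23) and did not pass. None of the 9 mitochondrial genome genes tested, of 161, was called, where 1.71% of all genes were, with a median of 0.05.

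Glycosyltransferases of groups 73 and 74, which attach glucose to hormones, toxins and other small molecules, were higher in gun1-1 at 5 of 15 genes tested and lower at none, with a median of 0.63. UGT74E2, which acts on the auxin indole-3-butyric acid, had 70.7 FPKM in gun1-1, against 7.04 FPKM in gun5-1 and 11.2 FPKM in Col-0, a difference of 3.30 (SE 0.34). UGT73C1 had 94.2 FPKM in gun1-1, against 16.5 FPKM in gun5-1 and 20.5 FPKM in Col-0, a difference of 2.49 (SE 0.28). UGT73C5 (named DOGT1 in RefSeq), which detoxifies the fungal toxin deoxynivalenol and glucosylates brassinosteroids, had 180.4 FPKM in gun1-1, against 36.7 FPKM in gun5-1 and 51.8 FPKM in Col-0, a difference of 2.27 (SE 0.24). The UGT73C genes form a cluster of close relatives, so the share of each is less certain than their sum. CYP81D11, a cytochrome P450 induced by toxic chemicals, had 91.1 FPKM in gun1-1, against 7.36 FPKM in gun5-1 and 12.3 FPKM in Col-0, a difference of 3.61 (SE 0.65).

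Tau class glutathione S-transferases, which conjugate foreign compounds to glutathione, were split, with 2 of 23 higher, 1 lower and a median of 0.18. Of all genes tested 0.858% were higher and 0.852% lower. GSTU5 had 249.8 FPKM in gun1-1, against 96.7 FPKM in gun5-1 and 85.9 FPKM in Col-0, a difference of 1.35 (SE 0.24). GSTU4 differed by 1.99 (SE 0.57), and lost its call when 1 FPKM was added. GSTU20 was lower in gun1-1, with 6.52 FPKM in gun1-1, against 22.7 FPKM in gun5-1 and 17.3 FPKM in Col-0, a difference of -1.82 (SE 0.39). Both families were collected after their values had been seen. Outside these groups, SADHU3-2, a retroposon, had 63.7 FPKM in gun1-1, against 4.73 FPKM in gun5-1 and 3.62 FPKM in Col-0, a difference of 3.72 (SE 0.65). ACS7, an enzyme of ethylene synthesis, had 14.6 FPKM in gun1-1, against 3.28 FPKM in gun5-1 and 5.12 FPKM in Col-0, a difference of 2.13 (SE 0.46). XTH19, an enzyme that cuts and rejoins cell wall xyloglucan, had 28.3 FPKM in gun1-1, against 6.46 FPKM in gun5-1 and 19.4 FPKM in Col-0, a difference of 2.104 (SE 0.36). The authors' deposited tables call ACS7 and XTH19 above Col-0 in gun1-1 and below it in gun5-1.

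Transcripts of the plastid genome were lower in gun1-1 than in gun5-1, with a median farther below 0 than any other list described here. Of 134 plastid genes 53 were tested and 39 were called lower, with none higher. All 53 differences were below 0, between -5.08 and -0.97, with a median of -3.20. In the authors' deposited tables, 39 were lower in gun1-1 than in Col-0 and none higher, whereas in gun5-1 49 were higher and none lower. Over the 53 genes tested, the median of the deposited log2 ratios to Col-0 was -1.67 in gun1-1 and 1.84 in gun5-1. Plastid messages mostly lack the long poly(A) tails that the oligo(dT) beads bind, so the values hold only the plastid RNA that the selection carried over. The part that this selection has in the result was not tested. Of the 134 genes 67 were listed at 0 in gun1-1, 53 in gun5-1 and 58 in Col-0, and none of 37 plastid transfer or ribosomal RNA genes could be tested. Names come from identical spans in RefSeq, which identified 109 of the 134.

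Among photosynthesis genes of the plastid 11 of 13 tested were lower, with a median of -3.52. The reaction centre gene of photosystem I, psaB, had 0.3002 FPKM in gun1-1, against 9.97 FPKM in gun5-1 and 1.28 FPKM in Col-0, a difference of -5.08 (SE 0.96). Its partner psaA had 0.342 FPKM in gun1-1, against 9.04 FPKM in gun5-1 and 1.53 FPKM in Col-0, a difference of -4.75 (SE 0.83). The large subunit of Rubisco, rbcL, had 4.12 FPKM in gun1-1, against 52.8 FPKM in gun5-1 and 13.3 FPKM in Col-0, a difference of -3.70 (SE 0.39). psbA, for the D1 protein of photosystem II, had 1.69 FPKM in gun1-1, against 19.0 FPKM in gun5-1 and 5.64 FPKM in Col-0, a difference of -3.52 (SE 0.64). In each of the 4 genes Col-0 lay between the mutants. The call of psaB was lost when 1 FPKM was added to every value.

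Genes of the NDH complex, a complex of plastid electron transport, were lower at 5 of 7. Of these, ndhH had 4.81 FPKM in gun1-1, against 71.8 FPKM in gun5-1 and 15.4 FPKM in Col-0, a difference of -3.92 (SE 0.40). Of genes for the plastid RNA polymerase and ribosome 10 of 18 were lower, with a median of -2.94. The polymerase subunit gene rpoB had 1.55 FPKM in gun1-1, against 28.0 FPKM in gun5-1 and 6.12 FPKM in Col-0, a difference of -4.203 (SE 0.38). rpl16, for a ribosomal protein, was among the most abundant, with 669.8 FPKM in gun1-1, against 5573 FPKM in gun5-1 and 2128 FPKM in Col-0, a difference of -3.08 (SE 0.24). Of the other genes, ycf1, of the protein import machinery, had 23.4 FPKM in gun1-1, against 501 FPKM in gun5-1 and 84.4 FPKM in Col-0, a difference of -4.44 (SE 0.25), and 4 of 6 in that class were lower. The 9 tested genes that could not be named by an identical span of their own were left out of the classes above. All 9 were lower, with a median of -3.57. The members that did not pass included rps2, with a difference of -2.32 (SE 0.85), and rps18, with one of -1.66 (SE 0.74).

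**Figure D4:**
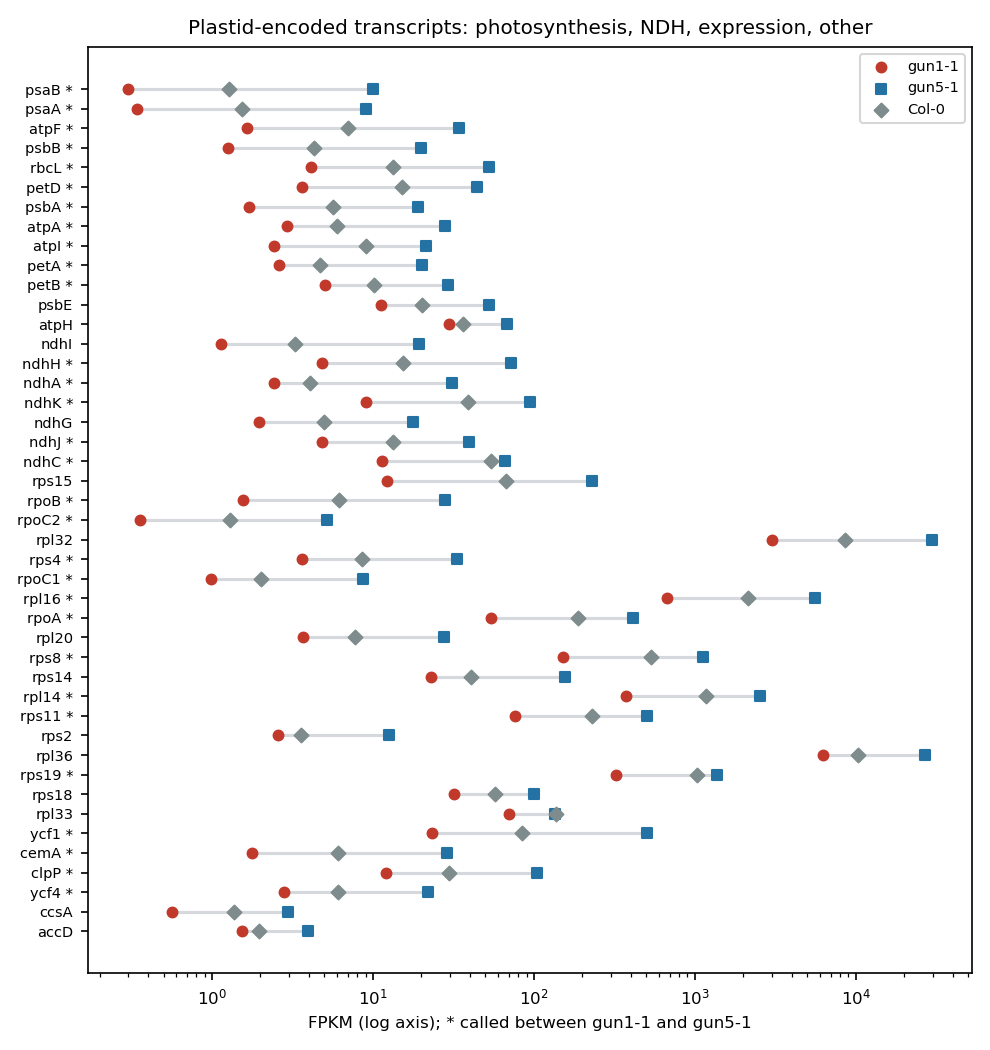
Abundance (FPKM, log axis) of the 44 tested plastid genome genes named by an identical RefSeq span, in gun1-1, gun5-1 and Col-0, 1 pooled value per genotype. Rows run from photosynthesis genes at the top to other genes at the bottom, with called genes starred. The gun1-1 point lies left of the gun5-1 point in each row, as for psaB, with 0.3002 FPKM in gun1-1 and 9.97 FPKM in gun5-1.

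Nuclear photosynthesis genes, the readout by which gun mutants are defined, had medians near 0 and 6 calls among 75 genes, against 1.71% of all genes. Of 21 light harvesting genes 2 were higher in gun1-1 and 1 lower (median 0.19), of 32 for photosystems and electron transport 1 was higher (median 0.13), and of 22 Calvin cycle genes 2 were higher (median -0.06). With the variance multiplied by 0.5 these lists gave 4 higher and 1 lower, 6 higher and 1 lower, and 2 higher and 1 lower, and with the error from the p-value alone all 6 calls were lost. In the authors' deposited tables all 75 genes of these lists were higher than Col-0 in gun1-1, and all 75 in gun5-1. Among the antenna genes, LHCB2.2 had 1196 FPKM in gun1-1, against 354 FPKM in gun5-1 and 24.2 FPKM in Col-0, a difference of 1.73 (SE 0.28). LHCB1.2 was lower in gun1-1, with 468 FPKM in gun1-1, against 961 FPKM in gun5-1 and 37.5 FPKM in Col-0, a difference of -1.06 (SE 0.26). Copies of LHCB1 and of LHCB2 are nearly identical, and the split of reads among them is uncertain. Summed over LHCB1.1 to LHCB1.5, abundance was 11835 FPKM in gun1-1, against 13471 FPKM in gun5-1 and 856 FPKM in Col-0, a log2 difference of -0.21. Summed over LHCB2.1 and LHCB2.2 it was 2736 FPKM in gun1-1, against 1239.7 FPKM in gun5-1 and 179.6 FPKM in Col-0, a log2 difference of 1.12.

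Outside the multicopy genes, LHCB4.3, a minor antenna protein of photosystem II, had 64.9 FPKM in gun1-1, against 29.1 FPKM in gun5-1 and 14.0 FPKM in Col-0, a difference of 1.13 (SE 0.31). PSBS, the sensor protein of non-photochemical quenching, had 1792 FPKM in gun1-1, against 995 FPKM in gun5-1 and 172 FPKM in Col-0. Its difference of 0.82 (SE 0.25) lay just inside the threshold. Centring on the median of all genes, adding 1 FPKM or summing transcripts ended the call. So did the error from the p-value alone, an upper bound here. PGK2, a phosphoglycerate kinase, had 145 FPKM in gun1-1, against 58.8 FPKM in gun5-1 and 20.1 FPKM in Col-0, a difference of 1.27 (SE 0.33). RBCS2B, a small subunit gene of Rubisco, differed by 1.82 (SE 0.27), but its copies RBCS1B, RBCS2B and RBCS3B together had 13341 FPKM in gun1-1, against 13699 FPKM in gun5-1 and 2149 FPKM in Col-0, a log2 difference of -0.06. Photorespiration genes, which salvage the product of Rubisco's oxygenation, had no call among 12 tested, or 1 higher with the variance multiplied by 0.5, and a median of 0.13. Of all genes tested 1.71% were called, and 3.08% were higher with that variance. GLK1 and GLK2, the transcription factors that switch on photosynthesis genes, are a pair. GLK1 had 15.5 FPKM in gun1-1, against 6.02 FPKM in gun5-1 and 3.15 FPKM in Col-0, and GLK2 had 87.4 FPKM in gun1-1, against 47.1 FPKM in gun5-1 and 24.7 FPKM in Col-0. Their differences of 1.34 (SE 0.48) and 0.87 (SE 0.31) did not pass, nor did any of the 14 regulators of chloroplast development, of which 3 were higher with the variance multiplied by 0.5.

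The mutated genes themselves were both transcribed. GUN1 had 137 FPKM in gun1-1, against 235 FPKM in gun5-1 and 149 FPKM in Col-0, a difference of -0.80 (SE 0.24) that was called lower in gun1-1. This lay near the smallest size called, 0.78. The call was lost without division by Col-0, whose values differ between the tables by a factor of only 0.984, and when 1 FPKM was added. It was kept with the variance multiplied by 0.5 and with the error from the p-value alone. CHLH, the gene mutated in gun5-1, had 647 FPKM in gun1-1, against 683 FPKM in gun5-1 and 192 FPKM in Col-0. Its difference of -0.10 (SE 0.27) did not pass, with an interval of -0.63 to 0.42 (95%). GUN4, which binds porphyrin and aids CHLH, was weakly expressed, with 6.09 FPKM in gun1-1, against 3.86 FPKM in gun5-1 and 2.06 FPKM in Col-0, and its difference of 0.64 (SE 1.78) did not pass. Of 29 tetrapyrrole synthesis genes tested none was called in either direction, or 2 lower with the variance multiplied by 0.5, with a median of -0.05. Of all genes tested 1.71% were called, and 2.99% were lower with that variance. Small counts such as these are not a result about the list. CHLG, chlorophyll synthase, did not pass with -0.72 (SE 0.24). Of 18 genes of carotenoid and plastid isoprenoid synthesis, the pathway that norflurazon blocks, none was called, or 1 lower with the variance multiplied by 0.5, with a median of 0.05.

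Nuclear genes of the plastid gene expression machinery had medians below 0, and none was called. Of 29 tested genes for plastid ribosomal proteins all had a difference below 0, with a median of -0.39, and none was called; with the variance multiplied by 0.5, 6 were lower. Of 14 genes for proteins associated with the plastid RNA polymerase none was called, or 2 lower with that variance, with a median of -0.23. The 9 genes of protein import gave no call and a median of -0.22. Of all genes tested 1.71% were called, and 2.99% were lower with the variance multiplied by 0.5. CPN60B2, a subunit of the plastid chaperonin that folds Rubisco, was higher in gun1-1, with 195 FPKM in gun1-1, against 74.1 FPKM in gun5-1 and 63.9 FPKM in Col-0, a difference of 1.37 (SE 0.25). No other of the 10 plastid chaperones was called, and 1 more was with the variance multiplied by 0.5.

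**Figure D5:**
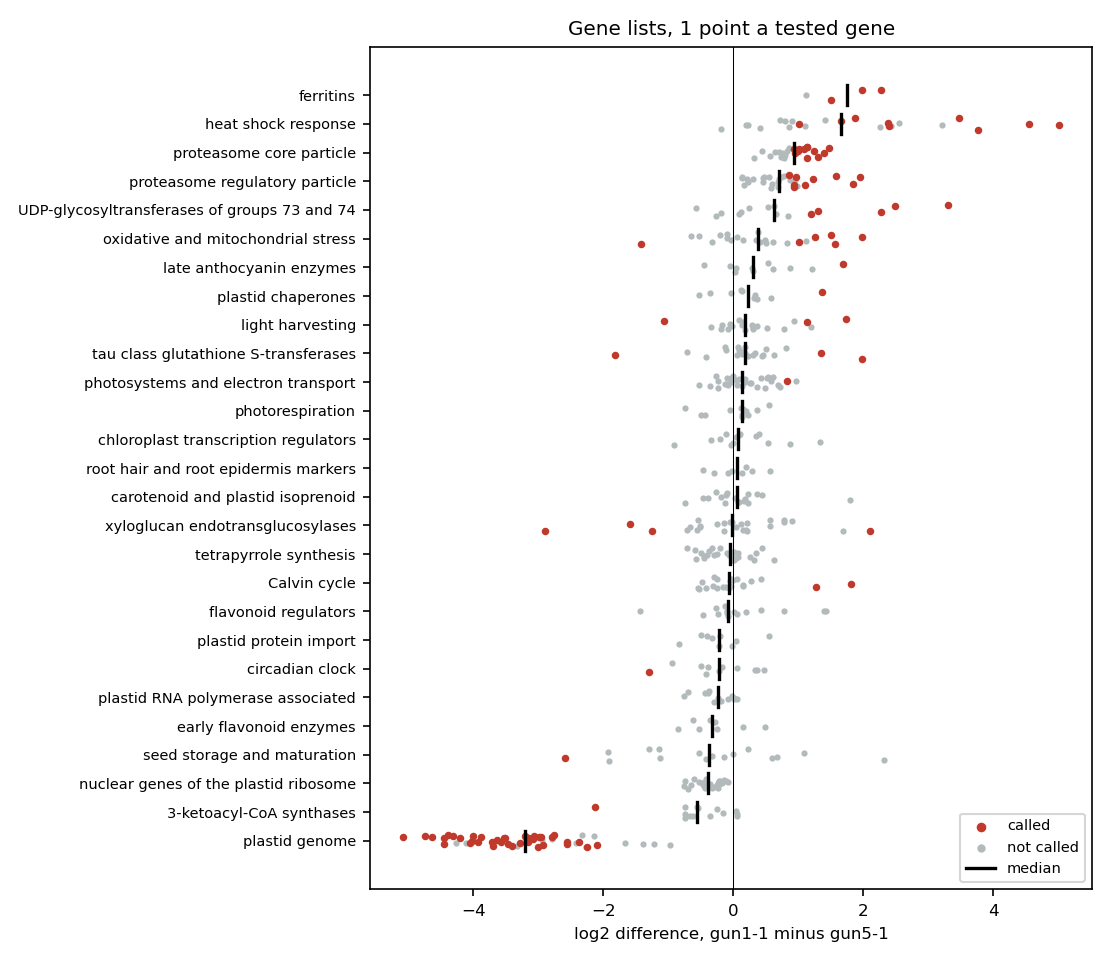
Difference between gun1-1 and gun5-1 (log2) for the tested members of each gene list, 1 point per gene, with the median of the list marked. The plastid genome (median -3.20) and the ferritins, heat shock genes and proteasome (medians 1.75, 1.66, and for the core and regulatory particle 0.93 and 0.70) lie farthest from 0, while the medians of the photosynthesis lists lie between -0.06 and 0.19.

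The nuclear genes lower in gun1-1 included enzymes of the cell surface and wall. KCS8, an elongase of very long fatty acids, had 8.98 FPKM in gun1-1, against 38.7 FPKM in gun5-1 and 46.6 FPKM in Col-0, a difference of -2.13 (SE 0.28). No other of the 14 tested genes of its family was called, and the median was -0.55; with the variance multiplied by 0.5, 7 were lower, and with the error from the p-value alone 5. Of 47 tested genes with GDSL in their annotation, lipases with roles in cutin and lipid metabolism, 5 were lower and none higher. With the variance multiplied by 0.5, 9 were lower and 1 higher. Of all genes tested 0.852% were lower, or 2.99% with that variance. The match by annotation misses genes named otherwise, such as LTL1 (AT3G04290), which differed by -1.67 (SE 0.30). AT4G28780 had 10.5 FPKM in gun1-1, against 32.8 FPKM in gun5-1 and 33.7 FPKM in Col-0, a difference of -1.66 (SE 0.28). Xyloglucan enzymes went both ways, with 3 of 27 lower and XTH19, given above, higher. The ratio without division by Col-0 gave 3 higher and 3 lower, a mean of at least 5 FPKM 3 higher and 2 lower, and the variance multiplied by 0.5, in turn, 4 higher and 7 lower. XTH25 differed by -2.89 (SE 0.80), with 0.788 FPKM in gun1-1, against 5.74 FPKM in gun5-1 and 4.27 FPKM in Col-0. It lost its call when 1 FPKM was added to every value. XTH9, expressed in growing tissue, had 19.3 FPKM in gun1-1, against 56.9 FPKM in gun5-1 and 56.0 FPKM in Col-0, a difference of -1.58 (SE 0.33). XTH22, a touch-induced gene, had 45.5 FPKM in gun1-1, against 107 FPKM in gun5-1 and 130.2 FPKM in Col-0, a difference of -1.25 (SE 0.24). These families were also collected after their values had been seen.

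Further genes lower in gun1-1 were scattered over functions. MLP423, a protein of the major latex group, had 9.36 FPKM in gun1-1, against 41.5 FPKM in gun5-1 and 70.0 FPKM in Col-0, a difference of -2.17 (SE 0.41), whose call was lost with the error from the p-value alone. DGAT3, a cytosolic enzyme of storage oil synthesis, had 52.0 FPKM in gun1-1, against 196 FPKM in gun5-1 and 65.5 FPKM in Col-0, a difference of -1.94 (SE 0.25). In gun1-1 it was near the Col-0 level, and in gun5-1 above it. NIT2, a nitrilase of auxin and glucosinolate metabolism, had 25.3 FPKM in gun1-1, against 72.3 FPKM in gun5-1 and 31.4 FPKM in Col-0, a difference of -1.54 (SE 0.27). DPE1, a plastid enzyme of starch breakdown, differed by -1.67 (SE 0.38). IGMT4, which methylates indole glucosinolates, had 50.0 FPKM in gun1-1, against 141 FPKM in gun5-1 and 87.3 FPKM in Col-0, a difference of -1.52 (SE 0.26). The lectin-like JAL22, the transcriptional regulator OFP16 and the latex protein MLP43 differed by -2.15 (SE 0.57), -1.89 (SE 0.56) and -1.88 (SE 0.34). The call of JAL22 was lost when transcripts were summed, and that of OFP16 when 1 FPKM was added.

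PRR5, a repressor of the circadian clock, was lower in gun1-1, alone among 11 clock genes, with 8.45 FPKM in gun1-1, against 20.5 FPKM in gun5-1 and 12.6 FPKM in Col-0, a difference of -1.302 (SE 0.33). The list median was -0.22, and with the error from the p-value alone 2 were lower. Flavonoid enzymes gave 1 call. Early enzymes had none of 8, or 3 lower with the variance multiplied by 0.5, with a median of -0.32, and the regulators none of 15, with a median of -0.08. Of 11 late anthocyanin genes 5MAT, which adds malonyl groups to anthocyanins, was higher in gun1-1, with 8.50 FPKM in gun1-1, against 2.58 FPKM in gun5-1 and 8.36 FPKM in Col-0, a difference of 1.69 (SE 0.45). Adding 1 FPKM ended that call, and 2 of the list were higher with the variance multiplied by 0.5. Of all genes tested 1.71% were called, or 3.08% higher and 2.99% lower with that variance.

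Markers of other tissues were compared because whole seedlings hold roots and seed remnants. Of 8 root hair and root epidermis markers none was called, the median was 0.06, and the summed abundance was 136 FPKM in gun1-1, against 115 FPKM in gun5-1 and 192 FPKM in Col-0. None of these was listed at 0 in any group. Of 16 seed storage and maturation genes tested 1, SESA3, was lower in gun1-1, with a difference of -2.58 (SE 0.68), a call that adding 1 FPKM ended. That list summed to 98.7 FPKM in gun1-1, against 111 FPKM in gun5-1 and 339 FPKM in Col-0. The part of tissue make-up in the results above was not tested beyond these values.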

How the data were processed

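RNA-seq was done on 5 d old seedlings after oligo(dT) selection, per the labels' protocols. Per the submitters' processing notes Trimmomatic, TopHat, Cufflinks and Cuffdiff were used; the genome build was not given in the sources used here, nor were versions. The authors deposited, for each mutant against Col-0, group FPKM values pooled over 3 libraries, log2 fold changes, a test statistic (a score), p-values and q-values per transcript. FPKM is scaled for length and library size by the authors.

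From these, 1 transcript per gene was kept (highest mean FPKM). The SE of each fold change was the larger of fold change over statistic and fold change over the normal quantile of its p-value; the second was left out at the smallest p listed, 5e-05. The p-values imply statistics a median of 1.74 times those listed, hence the larger error. The alternative with the error from the p-value alone kept the second at that smallest p, where it is an upper bound. Called means an adjusted p under 0.05. Genes listed at 0 in a group (70) and genes without a completed comparison in both tables (19716) were left out. Python 3.11.15, pandas 2.3.3 and scipy 1.17.1 were used.

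Named genes were GUN1, CHLH and GUN4, up to 4 called members per list and direction with at least 5 FPKM in a mutant and 2 members that did not pass with the smallest SE, the 8 largest called differences in each direction among genes with a symbol, and the 8 largest among genes called in opposite directions against Col-0; others were chosen after their values were seen. The members and the lists were chosen with earlier results of these data known. Proteasome, ferritin, glycosyltransferase, glutathione transferase, elongase, xyloglucan, GDSL and DNAJ lists were added later still. Upstream windows came from RefSeq TAIR10.1. Gene starts equalled RefSeq in 81.8% of genes, and the RefSeq span lay within the tables' span in 99.99%. Alternatives changed the error, pseudocount (1 FPKM), filters on FPKM, centring and the transcript used.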

Additional observations from a re-analysis of the deposited data

How the results depend on the processing

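No named difference that was called in either setting changed direction under the alternatives run for single genes. List medians were run with an FPKM filter, 1 FPKM added, centring and summed transcripts only. None that was larger in size than its median SE changed direction. Changes of sign in smaller values were not counted. The number of calls depended on the error: with the error taken from the p-value alone 1092 genes were called (547 higher in gun1-1, 545 lower), of which 253 were shared with the 313, and with the summed variance multiplied by 0.5, 1112 (564 higher, 548 lower). At an adjusted p under 0.01, 211 genes were called, 101 higher and 110 lower. The other settings kept each count within 1.5 times. Of 163 named differences, adding 1 FPKM ended 12 calls (HOP3, XTH25, SESA3, OFP16, GSTU4, FER2, 5MAT, PSBS, psaB, ycf4, PBE2 and GUN1), the error from the p-value alone ended 9 (LHCB1.2, LHCB2.2, LHCB4.3, PSBS, RBCS2B, PGK2, UPOX, MLP423 and AT1G29660) and added 13, summing transcripts ended 3 (HOP3, JAL22 and PSBS), and the multiplied variance added 20. With 1 FPKM added to all members, untested ones included, the heat shock median was 1.04. No paired analysis was possible because the tables hold group values without libraries, and for the same reason no replicate could be left out. Depth is unknown, so what it limits is seen only in the errors: genes with a wide SE, such as GUN4, could not be resolved.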

Other observations

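Some genes were listed at exactly 0 in 1 mutant while reaching at least 5 FPKM in the other: 96 were at 0 in gun1-1 only and 89 in gun5-1 only, and the authors' deposited tables call 5 of these against Col-0. An exact 0 can be a failed estimate, so no fold is given. Over single transcripts 24198 were tested and 281 called, 144 higher and 137 lower in gun1-1. Among these, 2 were not the most abundant transcript of their gene, and no gene had transcripts called in both directions.

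Large differences were also seen in genes outside the lists and naming rules. AT2G29370, of the Rossmann-fold dehydrogenase type, had 22.9 FPKM in gun1-1, against 1.37 FPKM in gun5-1 and 2.09 FPKM in Col-0, a difference of 4.03 (SE 0.82). AT5G12110, annotated as an elongation factor subunit, had 40.0 FPKM in gun1-1, against 3.49 FPKM in gun5-1 and 5.20 FPKM in Col-0, a difference of 3.50 (SE 0.78). FIB, a fibrillin of plastid lipid bodies, had 79.8 FPKM in gun1-1, against 14.2 FPKM in gun5-1 and 12.4 FPKM in Col-0, a difference of 2.46 (SE 0.31). UGT84A3, a glucosyltransferase of hydroxycinnamates, had 40.5 FPKM in gun1-1, against 7.44 FPKM in gun5-1 and 2.66 FPKM in Col-0, a difference of 2.42 (SE 0.45). In the other direction, AT1G23130, annotated as a polyketide cyclase and lipid transport protein, had 12.8 FPKM in gun1-1, against 154 FPKM in gun5-1 and 62.7 FPKM in Col-0, a difference of -3.62 (SE 0.32). AT2G07080, uncharacterized, had 1.37 FPKM in gun1-1, against 13.5 FPKM in gun5-1 and 6.84 FPKM in Col-0, a difference of -3.33 (SE 0.42). AT1G06360, annotated as a fatty acid desaturase, had 3.14 FPKM in gun1-1, against 30.8 FPKM in gun5-1 and 24.3 FPKM in Col-0, a difference of -3.32 (SE 0.41). AT3G05730, annotated as defensin-like, had 23.57 FPKM in gun1-1, against 226 FPKM in gun5-1 and 118 FPKM in Col-0, a difference of -3.29 (SE 0.25). These 8 were chosen after their values had been seen.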
